A study of Mus musculus with 19 samples.

Results

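The reads of the maternal and the paternal allele were compared within each of 2 control morula libraries of the mouse, gene by gene. The genes were all autosomal genes with at least 20 allelic reads in both libraries, which gave 6823 of the 10351 autosomal genes and of 10723 genes in all in the morula allelic table. These 6823 genes held 99.0% and 98.4% of the autosomal allelic reads of the libraries called here morula 1 and morula 2. Both libraries came from Eed-fl/fl mothers of B6/129 background, for which the labels list no Cre, and wild-type PWK fathers. Every maternal chromosome was thus of B6/129 origin, and the maternal copy of Eed was floxed. The reciprocal cross was not analysed here, and a parental bias and a strain bias of one gene cannot be told apart. Shares of the same genes in 4 control libraries of extra-embryonic ectoderm (ExE, the trophoblast tissue beside the epiblast) at embryonic day 6.5, from 2 female and 2 male embryos of the same cross, are set beside those of morulae with no test, since the tables were normalized separately. The number of embryos in a library and whether the libraries came from separate litters are not given in the sources used here, so each p-value reflects the spread of these libraries alone, which may be technical.

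A mouse morula is a compacting ball of cells that has switched on its own genome but may still hold transcripts made by the growing oocyte. Such leftover transcripts carry maternal sequence only. Imprinted genes are read from one parental allele because a mark placed in the egg or the sperm, DNA methylation for most of them and histone H3 lysine 27 trimethylation (H3K27me3) for a smaller group, persists in the embryo. Another source of unequal allelic reads is sequence difference between the strains, in regulatory regions, in gene copies, or in how well reads of each strain map to the reference genome. The share of allelic reads does not distinguish between these.

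Over all 6823 genes the alleles were close to balance. The maternal allele supplied 50.6% of 3718244 allelic reads in morula 1 and 50.8% of 4294122 in morula 2, a mean of 50.7% ± 0.14 (SD, n = 2). The median gene had 139 and 189 allelic reads and a maternal share of 51.2% and 51.8%. Per gene the precision depended on its reads: at 20 reads a share of 50% has a 95% Wilson interval of 29.9 to 70.1, and at 1000 reads one of 46.9 to 53.1. All such intervals, and the limits that a count of 0 allows, cover counting error only. By edgeR's quasi-likelihood test with library as a block, 1288 genes (18.9%) passed a Benjamini-Hochberg adjusted p of 0.05. Of these, 733 were maternal-higher (10.7% of the genes tested) and 555 paternal-higher (8.13%), and all 1288 had both libraries on the called side of 50%. Maternal-higher genes made up 56.9% of the calls, but 49.1% with TMM factors and 47.7% with DESeq2. Both of these centre the ratios of all genes near 0. With limma on allelic RPKM the figure was 46.5%. Limma applied no centring, but the median log2 ratio of the deposited allelic RPKM was itself near 0. In either direction TMM called 21.9% of genes, DESeq2 12.6% and limma 12.8%. The median log2 ratio of maternal to paternal reads was 0.09 in the fit reported here and -0.01 with TMM. At least 75% of the reads were maternal in both libraries in 274 genes (4.02%) and paternal in 255 (3.74%). No paternal read was found in either library for 20 genes and no maternal read for another 20.

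**Figure D1:**
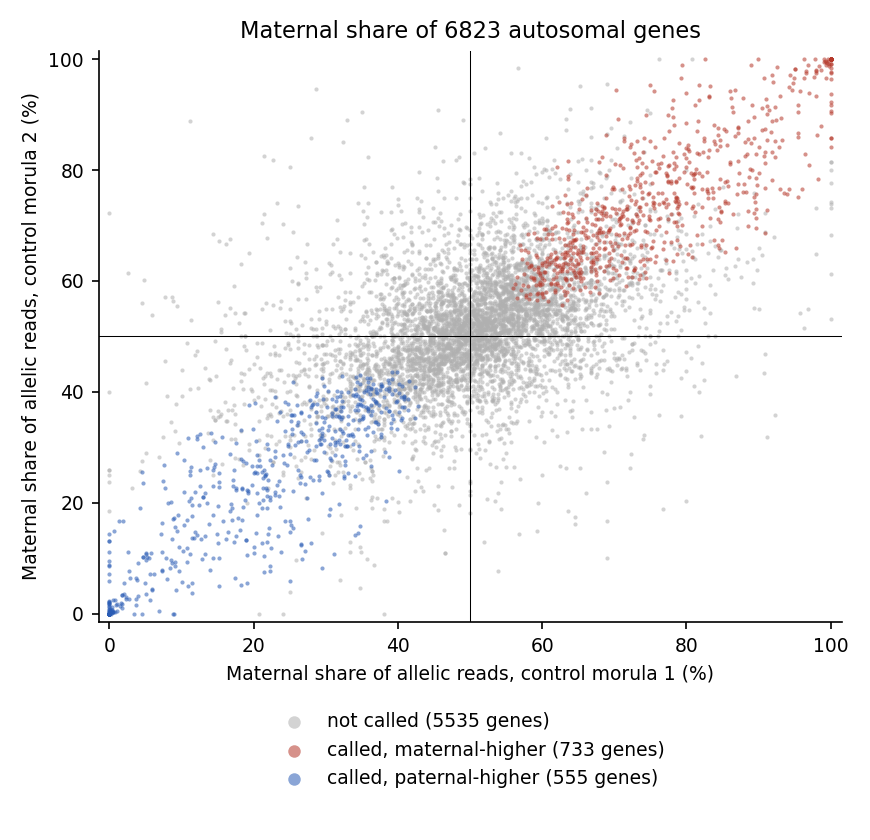
Maternal share of allelic reads (%) of each of the 6823 genes in morula 1 (x axis) against morula 2 (y axis); each point is a gene, coloured by its call in edgeR's test. Called genes lie in the lower left and upper right corners, 555 paternal-higher and 733 maternal-higher, and the 5535 genes not called spread around 50%.

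At the far ends of the scale, reads came almost entirely from one parent. Among the genes with at least 100 allelic reads in both libraries, Hist1h4i, a histone H4 gene, had 168 of 168 and 134 of 134 reads from the maternal allele, at least 101-fold more maternal than paternal reads when 3 reads over both libraries are taken as the floor. Gng5, a G protein gamma subunit, had 542 of 542 and 894 of 896 maternal reads (log2 ratio 9.33 ± 0.40 SE, edgeR adjusted p = 9.11e-05). The same end of the scale held Hist1h4d, another histone H4 gene, Gc, the vitamin D-binding protein, the zinc-finger gene Zfp947, Csnk2a1, a catalytic subunit of casein kinase 2, the ribosomal protein genes Rpl35a and Rps18, and the locus listed as Mir682. DESeq2 did not call Hist1h4i. All of these had 98.4% or more of their reads from the maternal allele in both libraries, with edgeR adjusted p-values of 0.00159 or lower. The one with no named product was 2310040G24Rik, with 3980 of 3989 and 1767 of 1781 maternal reads. Gng5, Csnk2a1, Rpl35a and Rps18 have a pseudogene named after them in RefSeq. Reads of near-identical copies may be assigned to such genes, so their shares are uncertain. Rpl35a and Mir682 rest on 1 variant, and Gng5, Gc and Rps18 on 2.

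At the paternal end, Dok5, an adaptor of receptor tyrosine kinase signalling, had no maternal read among 473 and 478, which allows a maternal share of up to 0.634% and 0.628%, and had at least 317-fold more paternal reads by the same floor. Atp5g2, one of the genes for subunit c of ATP synthase, had 0 of 269 and 1 of 735 maternal reads. Fabp4, a fatty acid-binding protein, had 1 of 884 and 1 of 171, and Fkbp6, a co-chaperone needed for meiosis in the male, 1 of 372 and 1 of 553. Gm7367 and Fam100b on chromosome 11 overlap and were deposited with identical reads, 0 of 351 and 2 of 577 maternal, so their reads cannot be told apart. Their allelic RPKM differ: those of Gm7367 pointed to the paternal allele too, while those of Fam100b were at or near 0 for both alleles. Total RPKM went the other way, with Gm7367 listed at 0 in both libraries and Fam100b at 23.1 and 28.9. The place of both genes here rests on the shared counts. The imprinted RNA Kcnq1ot1, D7Ertd715e on chromosome 7, 9030619P08Rik on chromosome 15 and Rps29 completed the 10 strongest paternal genes under the naming rule. DESeq2 did not call 9030619P08Rik. Rps29 has a pseudogene named after it in RefSeq, and Rps29 and Atp5g2 rest on 1 variant each. All 10 were at or below 0.585% maternal in both libraries, and their edgeR adjusted p-values ran from 1.72e-05 (Rps29) to 0.000796 (9030619P08Rik).

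Genes imprinted through germline DNA methylation and expressed from the paternal allele were paternal-higher with 1 exception. Of 8 measured members 7 passed, all paternal-higher (87.5%, against 8.13% over all genes; 6 of 7 when Snrpn and Snurf, which share their reads, are counted once), and the median maternal share of the 8 was 0.373%, against 51.4% over all genes. Snrpn, which encodes a spliceosomal protein, had 5 of 1090 and 3 of 1133 maternal reads, or 0.459% (95% Wilson interval 0.196 to 1.07) and 0.265% (0.0901 to 0.776). The log2 ratio was -8.07 ± 0.25 (edgeR adjusted p = 4.34e-05). Snurf, encoded by the same transcripts, was deposited with the same reads (both on chromosome 7, near position 67127388 in mm9). Kcnq1ot1, the long antisense RNA of the Kcnq1 domain, had 1 of 396 and 0 of 513 maternal reads over 150 sequence variants. Whether the authors' counting used the strand is not given in the sources used here, so reads of Kcnq1ot1 and of the gene it overlaps cannot be told apart. Zrsr1, a splicing-factor-related gene inside an intron of Commd1, had 0 of 80 and 1 of 130 maternal reads, and Plagl1, a zinc-finger regulator, had 0 of 60 and 0 of 47, which allows up to 5.00% and 6.38%. Peg3, another zinc-finger gene, had 9.23% and 4.24% (6 of 65 and 5 of 118 reads, edgeR adjusted p = 0.00464). Impact, a regulator of translation, had 17.6% and 22.6% (6 of 34 and 12 of 53, edgeR adjusted p = 0.0387). The exception was Sgce, the epsilon-sarcoglycan gene, with 44.8% and 36.6% (39 of 87 and 15 of 41 reads, edgeR adjusted p = 0.422). In control ExE the maternal share of Sgce was 1.87% ± 1.26 of allelic RPKM (SD, n = 4, range 0.686 to 3.64). Below the read minimum, Zdbf2 had no maternal read among 17 and 41. DESeq2 did not call Plagl1 or Impact, which left 5 of the 7 calls.

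As the sequence at the start of genes from both imprinted groups, promoters are printed from 250 bases before to 50 bases after the transcription start, with CG dinucleotides, the sites of DNA methylation, in capitals. The sequences are from RefSeq on build GRCm38.p6. Snurf (chr7:60005150-60005449, minus strand) and Plagl1 (chr10:13090582-13090881, plus strand) are shown for the DNA methylation group, out of 5 of its windows searched. Gab1 (chr8:80880470-80880769, minus strand) and Sfmbt2 (chr2:10370201-10370500, plus strand) are shown for the H3K27me3 group, each by the first of 2 starts that the table gives.
Snurf: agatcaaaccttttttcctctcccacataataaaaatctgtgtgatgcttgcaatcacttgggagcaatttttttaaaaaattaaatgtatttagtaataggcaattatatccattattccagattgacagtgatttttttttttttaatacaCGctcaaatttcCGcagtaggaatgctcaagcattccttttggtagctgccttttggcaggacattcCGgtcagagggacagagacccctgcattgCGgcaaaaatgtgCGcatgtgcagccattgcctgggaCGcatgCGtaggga
Plagl1: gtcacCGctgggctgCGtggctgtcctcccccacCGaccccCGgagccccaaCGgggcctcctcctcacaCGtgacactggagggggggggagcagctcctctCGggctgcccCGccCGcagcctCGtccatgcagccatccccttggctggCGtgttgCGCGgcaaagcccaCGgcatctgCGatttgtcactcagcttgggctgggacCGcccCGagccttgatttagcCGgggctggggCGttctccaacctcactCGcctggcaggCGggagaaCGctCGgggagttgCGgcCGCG
Gab1: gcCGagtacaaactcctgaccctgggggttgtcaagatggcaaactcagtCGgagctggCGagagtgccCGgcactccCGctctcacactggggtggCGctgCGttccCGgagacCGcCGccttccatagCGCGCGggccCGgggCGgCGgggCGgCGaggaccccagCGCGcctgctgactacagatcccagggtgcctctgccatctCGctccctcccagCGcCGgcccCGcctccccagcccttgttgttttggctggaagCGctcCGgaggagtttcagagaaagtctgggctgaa
Sfmbt2: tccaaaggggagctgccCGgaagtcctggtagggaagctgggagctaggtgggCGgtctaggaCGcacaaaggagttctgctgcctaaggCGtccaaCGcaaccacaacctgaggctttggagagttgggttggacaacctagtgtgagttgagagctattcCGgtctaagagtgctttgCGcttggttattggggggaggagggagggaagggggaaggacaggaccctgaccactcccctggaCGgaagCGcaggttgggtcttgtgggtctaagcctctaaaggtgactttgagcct
The windows hold 7 CG dinucleotides for Snurf, 26 for Plagl1, 26 for Gab1 and 9 for Sfmbt2, against a median of 7 over all 32851 promoters in the table and of 22 over the 5491 genes of the comparison (80.5%) that were found there. The letters TGCCGC on either strand, the core recognised by the imprint-protecting zinc-finger protein ZFP57 when methylated, occur in the Snurf and Plagl1 windows and not in those of Gab1 and Sfmbt2. They are likewise not in the windows of Kcnq1ot1, Peg3 and Zrsr1, the other members of the DNA methylation group searched (9, 13 and 10 CG dinucleotides). They also occur in 11.6% of all promoters and in 20.7% of the promoters of the compared genes.

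Among genes imprinted for expression from the maternal allele 1 of 12 measured members passed (8.33%, against 18.9% over all genes), namely Dhcr7, the last enzyme of cholesterol synthesis, with 34 of 34 and 32 of 32 maternal reads (edgeR adjusted p = 0.00894, not called by DESeq2). The median share of the 12 genes was 50.1%. Igf2r, the receptor that clears insulin-like growth factor 2, had 107 of 196 and 59 of 126 maternal reads, 54.6% and 46.8% (edgeR adjusted p = 0.924). Grb10, an inhibitor of growth factor signalling, had 66.3% and 53.9% (57 of 86 and 55 of 102, adjusted p = 0.327 by edgeR). Ube3a, a ubiquitin ligase, had 40.4% and 52.3%, and Commd1, a regulator of copper handling, 70.1% and 67.4% (edgeR adjusted p = 0.744 and 0.0603), with Commd1 called by limma on allelic RPKM. In control ExE the same 12 genes had a median maternal share of 67.5%, with Igf2r at 87.9% (range 83.7 to 90.5), Grb10 at 96.1% (93.7 to 97.8) and Tssc4, a gene of the Kcnq1 domain, at 98.5% (95.3 to 100). At the low end of the 12 in ExE were Ube3a (51.1%), Commd1 (53.3%) and Nap1l4 (54.8%). Tssc4 in morulae had 36.8% and 44.9%. Below the minimum, Meg3, a long RNA of the Dlk1 domain, had 3 of 6 maternal reads in morula 1 and 46 of 50 in morula 2, and Cdkn1c, a cell cycle inhibitor, had 4 of 12 and 38 of 65.

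**Figure D2:**
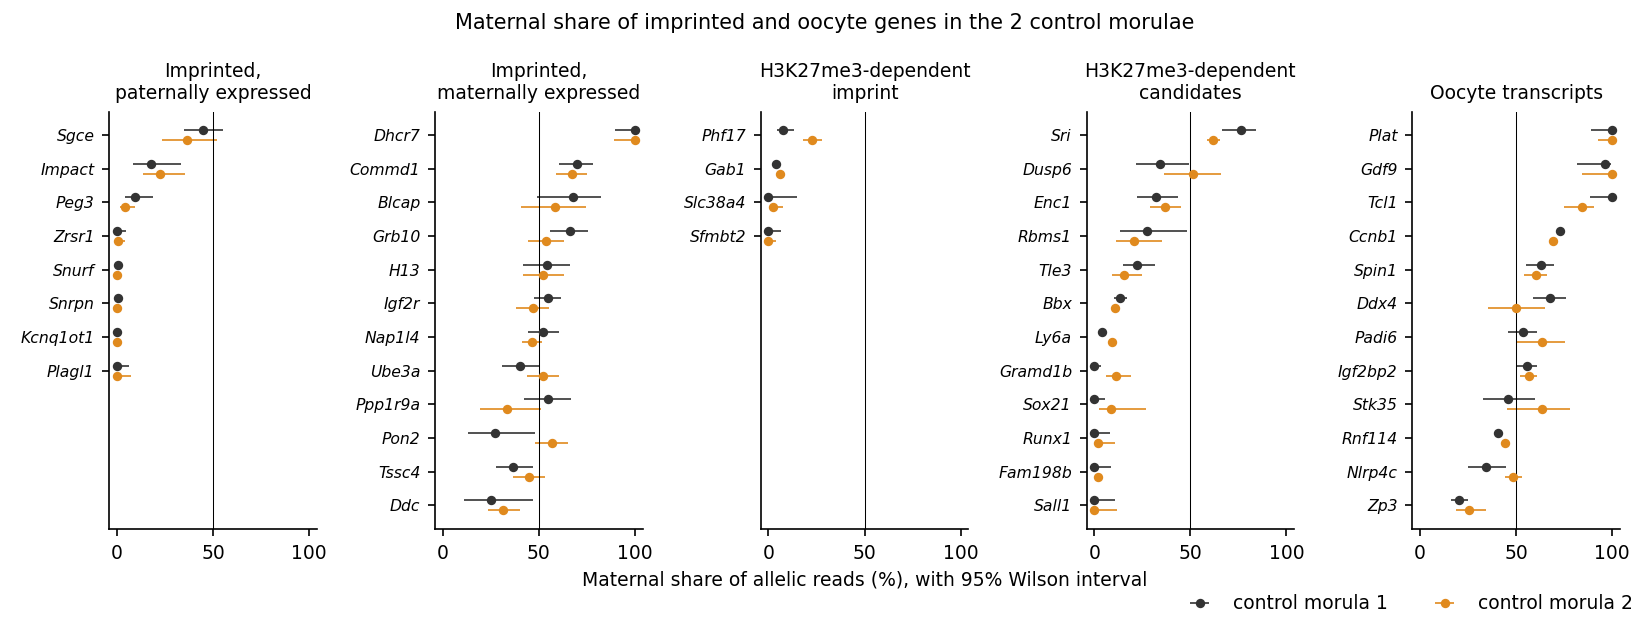
Maternal share of allelic reads (%, x axis) of every measured member of 5 gene lists in morula 1 (black) and morula 2 (orange), with 95% Wilson intervals. Paternally expressed imprinted genes and the 4 core H3K27me3-dependent genes lie at or below 22.6% apart from Sgce (44.8% and 36.6%), maternally expressed imprinted genes lie at or below 70.1% apart from Dhcr7, and oocyte transcripts range from Zp3 to Plat.

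All 4 measured genes of the core list with H3K27me3-dependent imprints were paternal-higher (8.13% over all genes), with a median maternal share of 3.01%. Gab1, a docking protein downstream of growth factor receptors, had 19 of 500 and 55 of 911 maternal reads, 3.80% and 6.04% (log2 ratio -4.24 ± 0.24, edgeR adjusted p = 0.000257). Sfmbt2, a Polycomb group protein required for placental growth, had 0 of 55 and 0 of 100, at least 51.7-fold fewer maternal than paternal reads (edgeR adjusted p = 0.00351, not called by DESeq2). Slc38a4, an amino acid transporter, had 0 of 22 and 2 of 91 (edgeR adjusted p = 0.00444). Phf17, a subunit of a histone acetyltransferase complex, had 10 of 131 and 65 of 287 maternal reads, 7.63% and 22.6%, the highest of the 4 in both libraries (log2 ratio -2.44 ± 0.44, edgeR adjusted p = 0.0164). The secreted protein gene Smoc1 lay below the minimum with 2 of 15 and 3 of 14.

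Among candidates for the same class 8 of 12 measured genes passed (66.7%), all paternal-higher, against 8.13% paternal-higher over all genes, with a median maternal share of 9.27%. This list and the core list were written from general knowledge, with earlier results of these data known. Membership may itself rest on paternal bias in early embryos, so the counts are descriptions and no independent support. Fam198b had 0 of 39 and 6 of 323 maternal reads, Runx1, a transcription factor of blood formation, 0 of 42 and 1 of 48, and Sall1, a zinc-finger regulator, 0 of 32 and 0 of 29. Ly6a, a surface protein, was the most abundant, with 122 of 3074 and 914 of 10045 maternal reads, 3.97% (3.33 to 4.72) and 9.10% (8.55 to 9.68). Its log2 ratio was -3.89 ± 0.30 (edgeR adjusted p = 0.000974). Bbx, an HMG-box gene, stood at 13.3% and 10.8% (edgeR adjusted p = 0.000741), Tle3, a co-repressor, at 22.1% and 15.4%, and the remaining calls were Gramd1b and Sox21. DESeq2 ended the calls of Sall1 and Gramd1b, and limma on allelic RPKM that of Tle3. Sri, a calcium-binding protein, was on the other side with 76.5% and 62.0% maternal (65 of 85 and 524 of 845 reads, edgeR adjusted p = 0.0506), and TMM factors called it maternal-higher. Of 11 further candidates below the minimum, 4 had no maternal read in either library. They were Hunk (10 and 23 reads), Rbp2 (7 and 52), Epas1 (7 and 4) and Mbnl2 (3 and 3), the last 2 with very few reads. Others of the 11 were not paternal: C430002E04Rik had 0 of 5 and 82 of 86 maternal reads and E130012A19Rik 6 of 14 and 15 of 31, and the summed maternal share of the 11 was 9.03% in morula 1 and 39.5% in morula 2. In control ExE the 9 candidates with values there had a median share of 43.5%, against 18.7% for the same genes in morulae, and Bbx stood at 40.3% ± 3.62 (n = 4) and Tle3 at 56.3% (range 48.9 to 62.9).

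Of 12 measured genes of the oocyte and egg-coat list, 4 were maternal-higher (10.7% over all genes) and 1 paternal-higher (8.13% over all genes), and the median maternal share was 58.7%, against 51.4% over all genes. Plat, tissue plasminogen activator, which the egg stores as a dormant transcript, had 31 of 31 and 48 of 48 maternal reads (at least 26.3-fold, edgeR adjusted p = 0.00756, not called by DESeq2). Gdf9, the oocyte growth factor, had 26 of 27 and 21 of 21, and Tcl1, a cofactor of the kinase AKT, 29 of 29 and 69 of 82 (edgeR adjusted p = 0.0120 and 0.0401). Ccnb1, cyclin B1, which embryos also transcribe, had 5319 of 7290 and 2062 of 2984 maternal reads, 73.0% (71.9 to 74.0) and 69.1% (67.4 to 70.7), with a log2 ratio of 1.30 ± 0.12 (edgeR adjusted p = 0.00159). Among the genes that did not pass were Padi6, a component of the cytoplasmic lattices of the egg (91 of 170 and 33 of 52, edgeR adjusted p = 0.419), and Igf2bp2, an RNA-binding protein (55.5% and 56.5%, edgeR adjusted p = 0.268). Zp3, a zona pellucida protein, was an exception. It had 58 of 287 and 30 of 117 maternal reads, 20.2% and 25.6%, and was paternal-higher (log2 ratio -1.78 ± 0.27, edgeR adjusted p = 0.00953).

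Another 18 genes of the oocyte list were in the allelic table but below the minimum of 20 reads. Together they had 89.1% maternal of 284 reads in morula 1 and 62.6% of 278 in morula 2. Of the 18, 11 were at 90% or more maternal in both libraries. These include Zar1 (1 and 3 reads), Nlrp4f (1 and 1), Nlrp9c (1 and 4) and Bcl2l10 (4 and 4). At so few reads an extreme share is easily reached, and the same count over all genes below the minimum was not made. Zp2, a second zona protein, had 31 of 31 and 11 of 11 maternal reads, Omt2b 25 of 25 and 9 of 9, Oosp1, an oocyte-secreted protein, 13 of 13 and 5 of 5, and E330034G19Rik 35 of 35 and 18 of 18. Uchl1, a ubiquitin hydrolase that other cells also express, had 12 of 17 and 49 of 120, and Figla, the transcription factor of the zona genes, 1 of 17 and 7 of 27. Summed over the oocyte list the total expression was 892 RPKM in morula 1 and 418 in morula 2. Ccnb1, which embryos also transcribe, held 513 and 169 RPKM of these sums. Trophectoderm genes summed to 1040 and 2320, and Krt8, an early epithelial keratin, stood at 6.44 and 56.1. In whole embryos, fewer cells of a kind and less RNA per cell cannot be told apart. Of 21 cumulus and granulosa markers 19 were under 1 RPKM in both libraries and 10 were listed at 0, the other 2 being Serpine2 (26.5 and 166 RPKM) and Amhr2 (7.26 and 9.33). Of 20 sperm markers 14 were under 1 RPKM in both. All 18 morula markers reached 1 RPKM in at least 1 library, but Sox2 stood at 0.0673 in morula 1 and Prdm14 at 0.777 in morula 2. The part of these differences between the libraries in the allelic results was not tested.

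Regulators stored in the egg were split between directions, and 6 of 32 measured maternal-effect genes passed (18.8%, the share over all genes being 18.9%). On the maternal side were Pou5f1, the pluripotency factor OCT4, with 92 of 92 and 181 of 181 reads at its single variant, Dppa3, which protects the maternal genome from demethylation, and Eif2c2, the Argonaute of small RNA silencing. Dppa3 had the most allelic reads of all genes in both libraries, with 81083 of 144681 and 58195 of 99168 maternal reads, 56.0% (55.8 to 56.3) and 58.7% (58.4 to 59.0). Its log2 ratio was 0.43 ± 0.07 (edgeR adjusted p = 0.0120). All 3 maternal-side calls ended under DESeq2, and those of Dppa3 and Eif2c2 under limma on allelic RPKM as well. On the paternal side were Dnmt3l, a cofactor of de novo DNA methylation, with 27.6% and 35.6%, Trim28, the co-repressor that ZFP57 recruits, with 39.2% and 43.6%, and Cdh1, E-cadherin, with 33.0% and 25.4% (edgeR adjusted p = 0.00979, 0.0414 and 0.0482). Limma on allelic RPKM ended the calls of Trim28 and Cdh1, and DESeq2 that of Cdh1. Dnmt1, the maintenance methyltransferase, had 11 of 30 and 3 of 34 maternal reads and did not pass (edgeR adjusted p = 0.129). In control ExE, Pou5f1 was again listed with maternal signal alone (100% in all 4 libraries).

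Genes of the 2-cell stage and genome activation passed in 5 of 10 cases, the share over all genes being 18.9%. Eif4ebp1, a translation repressor, had 2873 of 3620 and 8472 of 12097 maternal reads, 79.4% and 70.0% (log2 ratio 1.58 ± 0.18, edgeR adjusted p = 0.00347). Arg2, the mitochondrial arginase, had 75 of 87 and 40 of 43, and Tmem92 187 of 196 and 103 of 137 (edgeR adjusted p = 0.0108 and 0.0334). Eif1a, a translation initiation factor on chromosome 18, was called at 59.3% and 57.6% (edgeR adjusted p = 0.0237), but not by DESeq2 or limma. Sp110, a nuclear body protein, was paternal-higher with 215 of 1262 and 61 of 361 maternal reads (log2 ratio -2.29 ± 0.16, edgeR adjusted p = 0.000647). Pramel6 and Pramel7, which remain abundant in morulae, were not called, with shares between 45.2% and 50.7%.

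Pluripotency genes were called in 10 of 24 cases (41.7%, against 18.9% over all genes), 7 of them maternal-higher (10.7% over all genes). Tdgf1, the NODAL co-receptor Cripto, had 741 of 859 and 318 of 348 maternal reads, 86.3% (83.8 to 88.4) and 91.4% (88.0 to 93.9), with a log2 ratio of 2.96 ± 0.24 (edgeR adjusted p = 0.00110). Dppa2, an activator of early embryonic genes, had 87.2% and 81.6%, and its partner Dppa4, its neighbour on chromosome 16, had 66.9% and 70.3% (edgeR adjusted p = 0.000699 and 0.00807). Sall4, a zinc-finger pluripotency factor, and Gata6, the primitive endoderm factor, were between 62.3% and 68.0%. Jam2, an adhesion molecule, was paternal-higher at 26.1% and 25.9%, as were the receptor gene Fgfr2 at 34.4% and 36.8% and the TGF-beta ligand gene Gdf3 at 19.4% and 37.6%. Limma on allelic RPKM ended the calls of Sall4, Gata6, Jam2, Fgfr2 and Gdf3. Nanog had 76.1% and 60.5% maternal reads and did not pass (70 of 92 and 155 of 256, edgeR adjusted p = 0.0903). Tdgf1 and Nanog have a pseudogene named after them in RefSeq, so their shares are uncertain.

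In the trophectoderm list 12 of 31 genes passed (38.7%, against 18.9% over all genes), 5 maternal-higher and 7 paternal-higher, while DESeq2 called 2 and 6. Krt19, an epithelial keratin, had 0 of 21 and 2 of 101 maternal reads (log2 ratio -5.78 ± 0.68, edgeR adjusted p = 0.00391). Fabp3, a fatty acid-binding protein, had 10 of 61 and 167 of 1129, and the tight-junction genes Cldn6 and Cldn4 had 14.4% and 23.0% and 32.7% and 26.8%. Slc2a3, a glucose transporter, was on the maternal side with 41 of 45 and 172 of 188 reads, 91.1% and 91.5% (edgeR adjusted p = 0.00346), as was Aqp9, a channel for water and glycerol, with 86.1% and 81.0%. In control ExE the maternal share of Krt19 was 48.3% (range 44.9 to 50.6) and that of Slc2a3 52.6% (50.1 to 56.2), while that of Fabp3 was 8.41% (7.91 to 8.88).

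Of 15 measured Polycomb genes 2 passed (13.3%, against 18.9% over all genes), both maternal-higher, and the median maternal share was 59.0%. Kdm2b, which brings a Polycomb complex to CG-rich promoters, had 182 of 189 and 247 of 256 maternal reads, 96.3% (92.6 to 98.2) and 96.5% (93.5 to 98.1), with a log2 ratio of 4.72 ± 0.31 (edgeR adjusted p = 0.000493). Suz12, a core subunit of Polycomb repressive complex 2, had 62.4% and 61.8% (edgeR adjusted p = 0.0350, not called by DESeq2 or limma). Eed, whose maternal copy is floxed in these embryos, had 200 of 531 and 148 of 322 maternal reads, 37.7% (33.6 to 41.9) and 46.0% (40.6 to 51.4), and did not pass (log2 ratio -0.49 ± 0.21, edgeR adjusted p = 0.164). Ezh2, the methyltransferase of the complex, had 46.7% and 46.3%.

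Ribosomal protein genes were often read unequally. Of 48 measured genes 37 passed (77.1%, against 18.9% over all genes), 24 paternal-higher and 13 maternal-higher, and their shares ran from 0.319% to 99.6% around a median of 42.7%. Rps29, a small-subunit protein, had 20 of 6191 and 24 of 7630 maternal reads (log2 ratio -8.28 ± 0.15, edgeR adjusted p = 1.72e-05), and Rpl3 and Rpl13, large-subunit proteins, were at or below 0.652% in both libraries. Rpl35a had 2625 of 2635 and 2861 of 2872 maternal reads, and Rpl21, with 20 variants, 1371 of 1383 and 1600 of 1610. In control ExE, Rps29 had a maternal share of 0.121%, Rpl35a one of 99.8% and Rpl21 one of 98.1%. Over the 48 genes the median difference between the 2 tissues was 1.35 percentage points, and 41 genes differed by less than 5 points. Over all 6210 measured genes with ExE values the median difference was 6.22 points, and 2585 (41.6%) differed by less than 5. Depth differed as well: ribosomal protein genes had a median of 3068 and 3592 allelic reads, against 139 and 189 over all genes. Counting error was thus smaller for them, and the part of depth in this difference was not tested. Of the 48, 36 have a pseudogene named after them in RefSeq. Since reads of near-identical copies may be assigned to the parent gene, the shares of these genes are uncertain.

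Other genes with a named pseudogene were called in 39.2% of 181 cases, against 17.9% of 6594 genes without one. The grouping rests on the pseudogene's name alone, so the second group still holds genes of the multicopy list such as Npm1 and Actg1. Genes of this text in the first group include Ccnb1, Dppa3, Dnmt3l, Tdgf1, Nanog, Fabp3, Psma5, Glo1, Bhmt, Ly6e, Eif1, Ubb and Eef1a1. Their shares are uncertain for the same reason. Shares of 90% or more from one parent in both libraries were found in 33.3% of ribosomal protein genes, 6.63% of other genes with a named pseudogene and 2.29% of the rest. Of the multicopy families 10 of 17 measured genes were called (58.8%, against 18.9% over all genes), 7 maternal-higher and 3 paternal-higher. The most unequal were the ubiquitin gene Ubb (938 of 945 and 1720 of 1737 maternal reads) and the nucleolar gene Npm1 (92.3% and 91.3%). With them were the elongation factor gene Eef1a1 (93.0% and 93.4%) and the actin gene Actg1 (7.22% and 7.86%). In control ExE these 4 genes had 99.7%, 91.2%, 93.7% and 5.83%. Other called members were milder in morulae, such as the actin gene Actb (38.7% and 40.7%) and the tubulin gene Tuba1c (69.8% and 65.6%). The number of variants moved with the extremes as well. Genes with 1 variant were at 90% or more from one parent in 8.90% of 292 cases and genes with 20 or more variants in 1.64% of 915, whereas the share called was 21.9% and 23.3%. Calls also rose with expression, from 14.1% to 29.6% between the lowest and the highest of 5 equal groups by total RPKM. In the highest group genes had a median of 828 and 950 allelic reads. The part of gene copies, variants and depth in the calls was not tested.

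**Figure D3:**
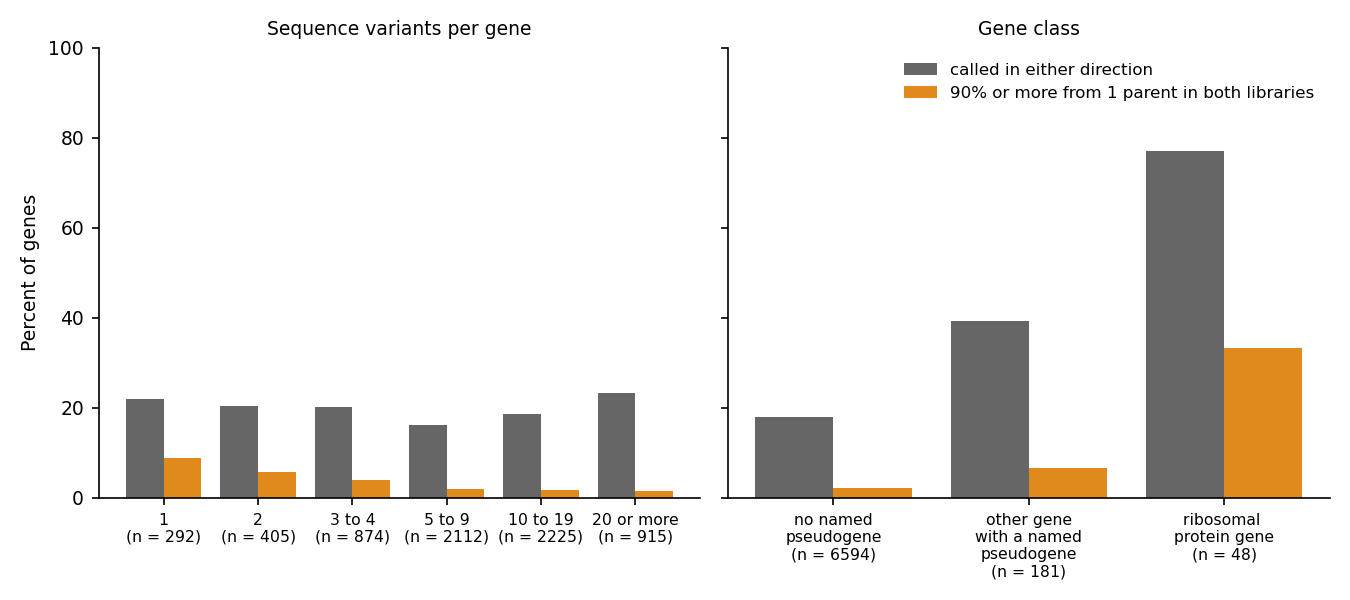
Percent of genes called in either direction (grey) and percent with 90% or more of reads from one parent in both libraries (orange), by number of sequence variants (left) and by gene class (right). The orange bars fall from 8.90% at 1 variant to 1.64% at 20 or more, and ribosomal protein genes reach 77.1% called and 33.3% at 90% or more.

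Of 27 proteasome genes 7 passed (25.9%, against 18.9% over all genes), 5 maternal-higher and 2 paternal-higher, while DESeq2 called 3 and 2. Among them were Psma5, a core particle subunit, at 98.0% and 97.9% maternal, and Psmd8, a regulatory subunit, at 12.7% and 13.4%. Psmd14 and Psmc2, also regulatory subunits, lay between 46.5% and 48.6% with 1868 to 2889 reads in each library. Of 54 genes of oxidative phosphorylation 16 passed (29.6%, against 18.9% over all genes), 11 maternal-higher and 5 paternal-higher, while DESeq2 called 6 and 6. They ran from Atp5g2 and Ndufb4, a complex I subunit (2.80% and 6.51%), to Uqcrb, a complex III subunit (97.9% and 98.1%). Of 8 glycolysis genes 4 passed, with 18.9% called over all genes: Hk1 and Gpi1 on the maternal side and Pgam1 and Pfkp on the paternal side, and neither DESeq2 nor limma called Hk1 or Gpi1. Pgam1, a mutase with pseudogenes, had 1 of 61 and 1 of 53 maternal reads. Eno1, an enolase, had 43 of 71 and 257 of 342 maternal reads and did not pass (edgeR adjusted p = 0.0564), while its allelic RPKM pointed to the paternal allele and was called there by limma (log2 ratio -3.11). Of 3 measured genes in regions of known copy number or structural difference between strains, Glo1, glyoxalase, was called, at 32.1% and 35.2% maternal.

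**Figure D4:**
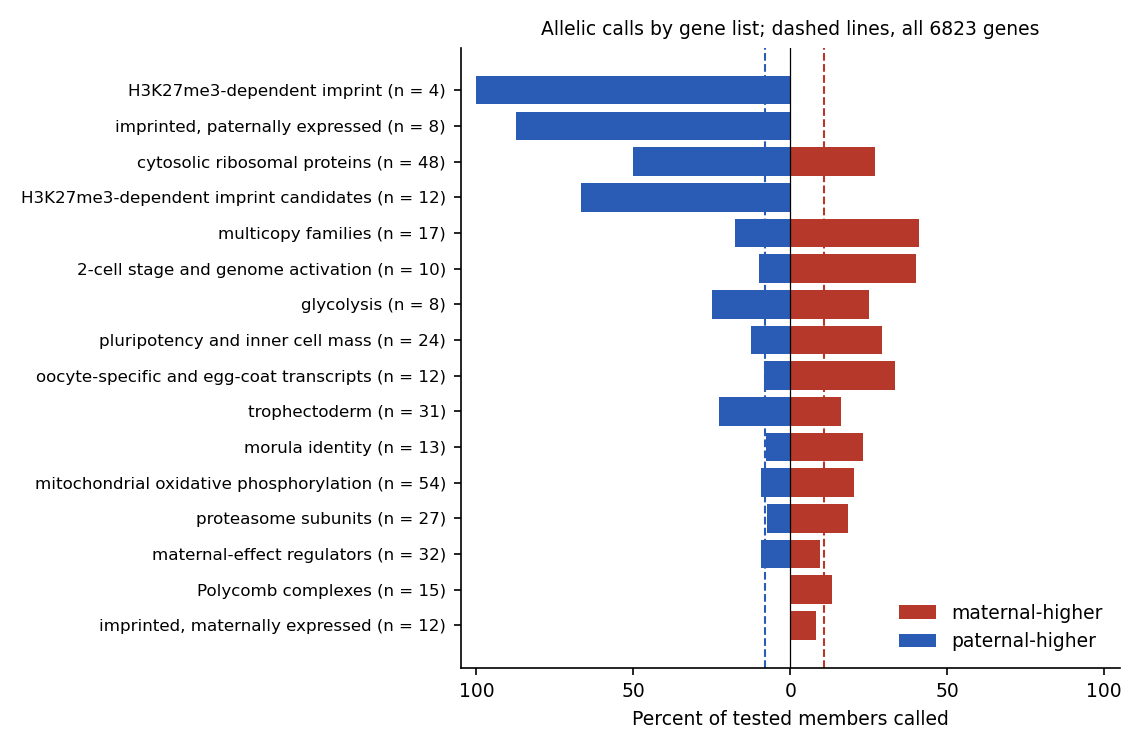
Percent of tested genes called paternal-higher (blue, left) and maternal-higher (red, right) in each list with at least 4 measured genes; n is the number tested, and dashed lines mark 8.13% and 10.7% over all 6823 genes. Paternally expressed imprinted genes and H3K27me3-dependent genes extend to the left alone, and ribosomal protein genes extend to both sides.

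Called genes were found on all 19 autosomes. The summed maternal share per chromosome lay between 46.4% and 54.7% in either library, and the share of genes called between 14.4% (chromosome 14) and 24.8% (chromosome 13). Of 287 pairs of called genes next to each other among the measured genes, 178 (62.0%) had the same direction and 109 the opposite. With 56.9% of all calls maternal-higher, many pairs would share a direction without any grouping. The share to be expected was not computed. There were 5 runs of 4 or more called neighbours in one direction, and the genes of these runs were chosen after their values were seen. A paternal run on chromosome 15 held the surface protein genes Ly6e (7.30% and 7.80%), Ly6a, Ly6c1 (1 of 410 and 5 of 1167 maternal reads) and Ly6f with 9030619P08Rik. A maternal run on chromosome 16 held Dppa4, Dppa2, Gm5485 (37 of 37 and 38 of 38 maternal reads) and Morc1, a germline gene (82.8% and 76.2%). The other 3 were paternal, with Krt28, Krt19, Krt14 and Eif1 on chromosome 11, Pcbp2, Map3k12, Tarbp2 and Atp5g2 on chromosome 15, and Usp25, E330011O21Rik, Cxadr and Btg3 on chromosome 16. DESeq2 did not call Gm5485, Krt14, Map3k12, Usp25 or Btg3. Btg3 had 0 of 64 and 0 of 118 maternal reads but a total RPKM of 0.000764 in morula 1 and 7.08 in morula 2. Its counts and total RPKM thus disagree in morula 1, and its place in the run rests on the counts. Ly6 genes are similar in sequence and lie close together, so their reads could be split between copies.

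Maternal shares were also compared between the 2 libraries. By Fisher's exact test on the reads of each gene with Benjamini-Hochberg adjustment, 1279 genes (18.7%) differed in maternal share. This test compares these libraries only and takes amplified reads as independent molecules, so it covers counting error only. The share was higher in morula 1 for 560 of them and in morula 2 for 719. Of the 1279, 271 were also called for bias, while 1288 of all 6823 genes (18.9%) were called. The median absolute difference was 6.12 percentage points over all genes, 72.2% of genes lay on the same side of 50% in both libraries, and the shares correlated across genes with r = 0.732 (genes are not independent replicates, and the libraries share strains and variants). The smallest p-values were those of 6 genes. Gsto1, a glutathione transferase, had 39.0% of 17249 reads and 51.3% of 36804. Cstb, an inhibitor of cathepsins, had 80.2% and 64.8%, Bhmt, an enzyme of methionine synthesis, 58.0% and 68.5%, Mt1, a metallothionein, 52.4% and 46.6%, Trim43c, a gene of a family active at genome activation, 26.6% and 12.4%, and Rps14 on chromosome 18 22.2% and 7.78%. Singled out after their values were seen, Cd22, Efr3b, Murc, Traf3, Upp1 and Zkscan17 were at 75% or more maternal in one library and 75% or more paternal in the other, with 22 to 56 reads in the shallower library. Among them Murc had 3 of 27 and 24 of 27 maternal reads.

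Shares in control ExE were set beside those of morulae for the 6210 genes with at least 1 allelic RPKM in all 4 control ExE libraries. Of the 628 maternal-higher genes with values there, 456 (72.6%) lay above 50% in all 4 ExE libraries, and of the 464 paternal-higher genes 347 (74.8%) lay below. For 5118 genes not called in morulae the 2 figures were 24.3% and 25.9%. The medians went from 71.3% in morulae to 59.1% in ExE for maternal-higher genes and from 26.0% to 38.1% for paternal-higher genes. These genes were selected by their morula shares, so the smaller distance from 50% in ExE is given as a description. Of the 190 measured genes at 75% or more maternal in both morula libraries, 70 stayed there in all 4 ExE libraries. Another 84 lay between 25% and 75% in all 4. For the 182 at 75% or more paternal the corresponding numbers were 92 and 63. A value in ExE was missing more often at the extremes: it was present for 69.3% of the genes at 75% or more maternal and 71.4% of those at 75% or more paternal, against 91.0% of all genes. The 84 strongly maternal genes without one had a median of 4.89 RPKM in morula 1 and 3.77 in morula 2.

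**Figure D5:**
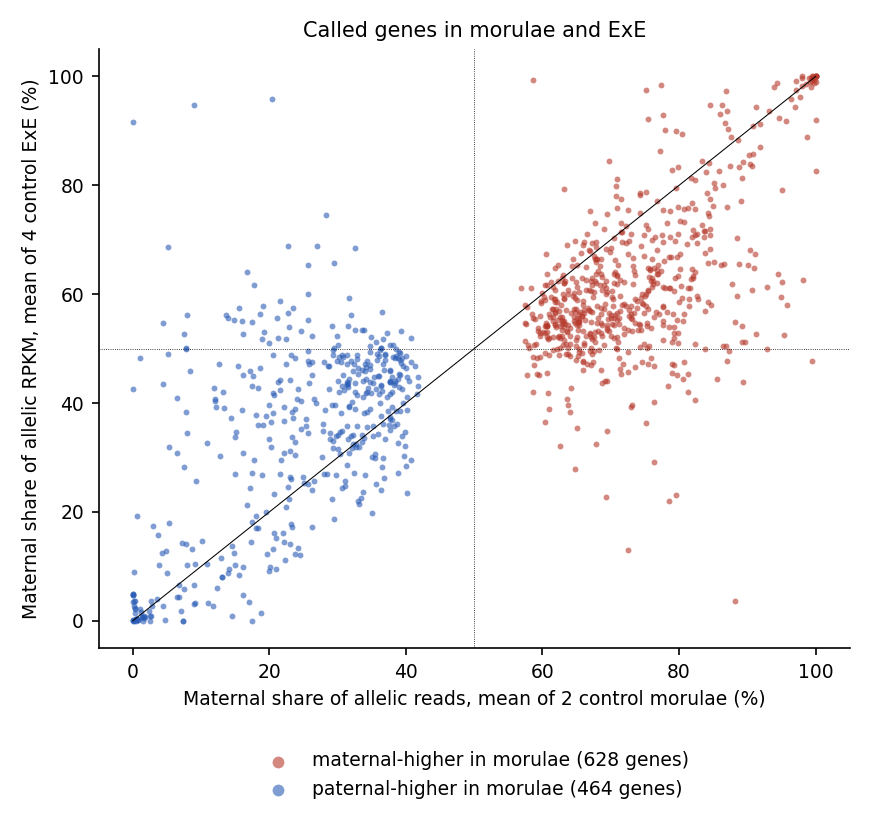
Mean maternal share of allelic reads in 2 control morula libraries (%, x axis) against mean maternal share of allelic RPKM in 4 control ExE libraries (%, y axis). Points are 628 maternal-higher (red) and 464 paternal-higher (blue) genes, and the solid line marks equal shares. Genes near 0 or 100% in morulae lie there in ExE as well or near 50%, and a few points lie in the opposite corners.

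Some of the strongest morula calls lay nearer 50% in ExE. 2310040G24Rik went from 99.8% and 99.2% to a mean of 47.8% ± 27.5 (n = 4), with ExE libraries from 22.6% to 85.1%. Aldh18a1, an enzyme of proline synthesis chosen after its values were seen, had 14 of 284 and 30 of 544 maternal reads in morulae, 4.93% and 5.51% (log2 ratio -4.16 ± 0.23, edgeR adjusted p = 0.000257), and 49.0% ± 3.29 in ExE. Atp5a1, a subunit of ATP synthase on chromosome 18, had 78.5% and 78.0% in morulae and 56.7% in ExE (55.7 to 59.5). In contrast Kdm2b stood at 95.9% in ExE (92.3 to 100), Dppa2 at 84.1% (82.9 to 84.9) and Uqcrb at 99.7% (99.4 to 100), next to their morula shares of 96.3% and 96.5%, 87.2% and 81.6%, and 97.9% and 98.1%. Whether stage, tissue or the separate processing of the tables moves with these differences was not tested.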

How the data were processed

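From control morulae 2 RNA-seq libraries were analysed, with 4 control ExE libraries for side-by-side values. Per the labels, RNA of lysed whole embryos was turned into amplified cDNA with a kit for very small inputs, and libraries were built with transposase. HISAT2 2.1.0, Cufflinks 2.2.1 and mm9 are named, without their roles, in the submitters' processing notes. The method of splitting reads by allele is not given in the sources used here. The authors deposited whole allelic read counts per gene and parental allele, with the number of variants per gene (median 9 for the genes compared). They also deposited allelic RPKM and total RPKM per library, for which the depth is unknown. The log2 scale of the limma alternative was computed here from the deposited allelic RPKM after adding 1 or 0.1. Coordinates of genes are those of the files (mm9) and cover part of each gene. In all, 88 per-sample columns, among them all knockout columns, were not used here.

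Counts of genes with at least 20 allelic reads in both libraries were fitted with edgeR 4.0.16 (quasi-likelihood, R 4.3.3) over the 4 allelic columns with library as a block, since both alleles of a library come from the same embryos. Both columns of a library carried its summed allelic total as library size, and p-values were adjusted over all 6823 genes. The morula count columns matched the total RPKM of the library of their own name better than the other (r = 0.773 against 0.695, and 0.746 against 0.687, across 6798 genes). With 2 libraries an exact paired test of one value cannot go below p = 0.5, so summed shares were not tested. Python 3.11.15, scipy 1.17.1 (Wilson intervals, Fisher's exact test), pandas 2.3.3 and matplotlib 3.10.9 were used for the rest, and the fits were tested on simulated data. RefSeq symbols were found for 6773 of the genes (99.3%). The 11 genes whose symbols appear as dates were kept in the counts and not named. Alternatives were TMM, DESeq2 1.42.0, limma 3.58.1 on allelic RPKM, read minimums of 10, 50 or none, at least 5 variants, no block, 1 gene per set of identical reads, and leaving out genes with a named pseudogene. The last 2 were chosen after seeing the data.

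The genes, the 19 gene lists and the tests were chosen with earlier results of these data known. The lists were written from general knowledge. Named were the 10 called genes with the largest log2 ratio in each direction with at least 100 reads in both libraries, every measured H3K27me3-dependent gene, up to 6 genes in each direction from every other list by smallest p, the 6 genes with the smallest p between the libraries, and Eed. Genes outside this rule are said to be chosen after their values were seen, or are members of these lists named because they did not pass, lay below the read minimum or completed a count. Just inside the minimum (20 to 22 reads in the shallower library) the median share of 250 genes was 51.7%, and just outside (17 to 19 reads) that of 268 genes was 51.1%.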

Additional observations from a re-analysis of the deposited data

Results flagged for a closer look

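The following genes were called in one direction with both morula libraries on that side of 50%. All 4 control ExE libraries lay on the other side. The difference between the tissues was not tested, nor was the presence of cells of the mother in the ExE libraries. Over all called genes with ExE values, 72 of 1092 (6.59%) did so, 43 maternal and 29 paternal in morulae.

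Ecscr, on chromosome 18, had 0 of 89 and 0 of 76 maternal reads in morulae and a maternal share of 91.7% ± 7.32 in ExE (SD, n = 4, range 82.7 to 100). Akr1c21, a steroid dehydrogenase, had 2 of 153 and 8 of 48 maternal reads in morulae and 94.7% ± 6.41 in ExE. H2-Ab1, a class II histocompatibility chain, had 30 of 118 and 49 of 319 in morulae and 95.8% ± 1.29 in ExE. Calml4, a calmodulin-like gene, went the other way, with 270 of 325 and 224 of 240 maternal reads in morulae and 3.59% ± 4.19 in ExE. Tmem50b, with 24 variants, had 5130 of 6398 and 3258 of 3855 in morulae and 40.5% ± 2.35 in ExE. These 5 genes were chosen after their values were seen.

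Differences of the same kind were found for Dnmt3l (27.6% and 35.6% in morulae, 59.3% in ExE with a range of 58.4 to 60.0), Ly6e (7.30% and 7.80%, 52.7% in ExE) and Hk1 (67.0% and 65.9%, 47.1% in ExE with a range of 46.0 to 49.0). DESeq2 did not call Ecscr or Hk1 in morulae.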

How the results depend on the processing

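The count of maternal-higher genes was 733 and that of paternal-higher genes 555. The library block decided most calls: with no replicate block 59 and 77 genes passed. The maternal-higher count was 411 with DESeq2, 407 and 307 with limma on allelic RPKM at pseudocounts of 1 and 0.1, and 448 among genes with at least 5 variants. The paternal-higher count was 355 with limma at a pseudocount of 0.1 and 320 with at least 5 variants, where fewer genes are tested. The other counts were within 1.5 times the reported ones. No call can be made without replicate 1 or 2, since 1 library leaves no residual degrees of freedom. The 274 and 255 genes at 75% or more from one parent were 78 and 101 at 90%, 160 (paternal) with at least 50 reads and 161 (paternal) with at least 5 variants. In 1 library alone they were 433 to 508 maternal and 359 to 496 paternal. The maternal share of 50.7% became 51.2% as a mean and 51.4% as a median over genes and 47.1% in summed allelic RPKM. The cause was not tested. Among the 209 genes followed singly, 1 reversed: Eno1 had log2 ratios of -3.11 and -6.26 with limma at pseudocounts of 1 and 0.1. DESeq2 ended 28 of their 140 calls and no block 86. For genes near 20 reads the depth leaves intervals of about 40 points.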
